A study of Mus musculus with 9 samples.

Results

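Ribosome biogenesis and RNA polymerase I genes were followed in C2C12 cells, a mouse myoblast line, after knockdown of either of a pair of RNA-binding proteins and after a block of transcription. The genes were chosen by symbol: those whose symbol starts with Nop, Nol, Utp or Rrp and a digit, or with Polr1, and Rrs1, Bop1, Pes1, Wdr12, Ncl, Npm1, Fbl, Dkc1, Nob1, Ddx21, Gnl3 and Nip7. They took up 57 of the 35556 probe sets on the array and stood for 52 of 19938 genes with a probe set of a single symbol. The rule itself uses symbols and no measured value. A mean log2 intensity of at least 7.385 over the 9 arrays, the 50th percentile of named probe sets, was asked of a tested gene, and 9864 genes passed. Among the members, 50 passed and 2 did not, Utp3 and Nol4l. Utp23 lay just inside, with a mean of 7.40, and Utp3 just outside, with 7.25. Utp23 passed through its 0 h arrays alone, those at 2.5 and 5 h being under the filter.

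All cells were C2C12 myoblasts in growth medium with serum, treated with control siRNA, Cugbp1 siRNA or Mbnl1 siRNA and then given 5 ug/ml actinomycin D, which blocks transcription. Total RNA was taken at 0, 2.5 and 5 h, with 1 array for each siRNA and time, so that each siRNA had 3 arrays and each time had 3. The control siRNA cells received the drug too, and no sample without siRNA or with the drug's solvent alone was analysed here. CUGBP1 (Celf1) binds GU-rich elements and is known for speeding mRNA decay and for splicing, and MBNL1 is a splicing regulator that is sequestered in myotonic dystrophy. The comparisons ask how knockdown of each shifts mRNA levels and mRNA loss.

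A few checks concern the arrays as a whole. Celf1 was lower under Cugbp1 siRNA by a log2 difference of -2.03 ± 0.09 (SE) and under Mbnl1 siRNA by -0.59 ± 0.09, and Mbnl1 was lower under Mbnl1 siRNA by -2.43 ± 0.09. Array medians ran from 104.9 to 113.0 in intensity, and pairs of arrays correlated at 0.980 to 0.995, both over all 35556 probe sets. The 5 myoblast markers looked at (Myod1, Myf5, Des, Cdh15 and Pax7) were above the filter, as were 3 of 5 markers of differentiated muscle (not Myog and Myh3), 0 of 4 of adipocytes, 1 of 4 of leukocytes (Cd68) and 1 of 3 of epithelia (Cdh1). Signal is relative: the values had been normalised together, so that a transcript that outlasts the others reads as a rise, and fewer molecules per cell and fewer cells cannot be told apart. Every adjusted p below comes from limma with Benjamini-Hochberg adjustment over the 9864 genes, called at 0.05, and errors are standard errors of the fit.

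Ribosomes are built in the nucleolus. RNA polymerase I copies the rDNA into a long precursor, small nucleolar ribonucleoproteins (snoRNPs) guide its chemical modification, and a large assembly, the small subunit processome, folds and cuts the part that becomes the small (40S) subunit. Another set of factors matures the large (60S) subunit, and late factors finish both in the nucleoplasm and cytoplasm. Transcripts of these factors are known as growth-regulated and as targets of MYC, and myoblasts make many ribosomes while they divide and grow.

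Over 5 h of actinomycin D most of these transcripts fell relative to the rest of the transcriptome. Of the 50 tested members 30 fell, 7 rose and 13 did not pass the test. That is 60% lower and 14% higher, where 32.8% and 35.6% of all 9864 genes were called lower and higher. The median log2 change was -0.28 for members and 0.04 for all genes. A fall of over 0.5 was fitted for 15 members (30%, against 15.7% of all genes). By over 1 fell 3: Gnl3, Utp15 and Utp23, the last tested only through its high 0 h arrays. Of the 30 that fell, 29 were lower at 5 h than at 0 h under each of the 3 siRNAs, Wdr12 being the exception. The 7 that rose were higher under each. A call itself favours agreement between the arms, so this shared direction is no separate support.

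How many rose or fell depends on the reference chosen. With arrays scaled to equal medians of 54 cytosolic ribosomal protein genes the median of all genes at 5 h moved by -0.23, and 43 members were lower and 0 higher (59.4% and 2.85% of all genes). With arrays scaled to equal medians of the tested genes it moved by 0.15, and 24 members were lower and 17 higher (24.1% and 59.2% of all genes). Both scalings shift every gene alike, so the members' median stayed 0.31 below that of all genes in each. Of the 30 falls, 24 were called under each of the alternatives run, Nol10, Nop53, Polr1e, Rrp15, Utp11 and Wdr12 being lost in at least 1. Utp11 turned from -0.14 to 0.011 with equal medians of the tested genes. Of the 7 rises, none was called with equal ribosomal protein medians.

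**Figure D1:**
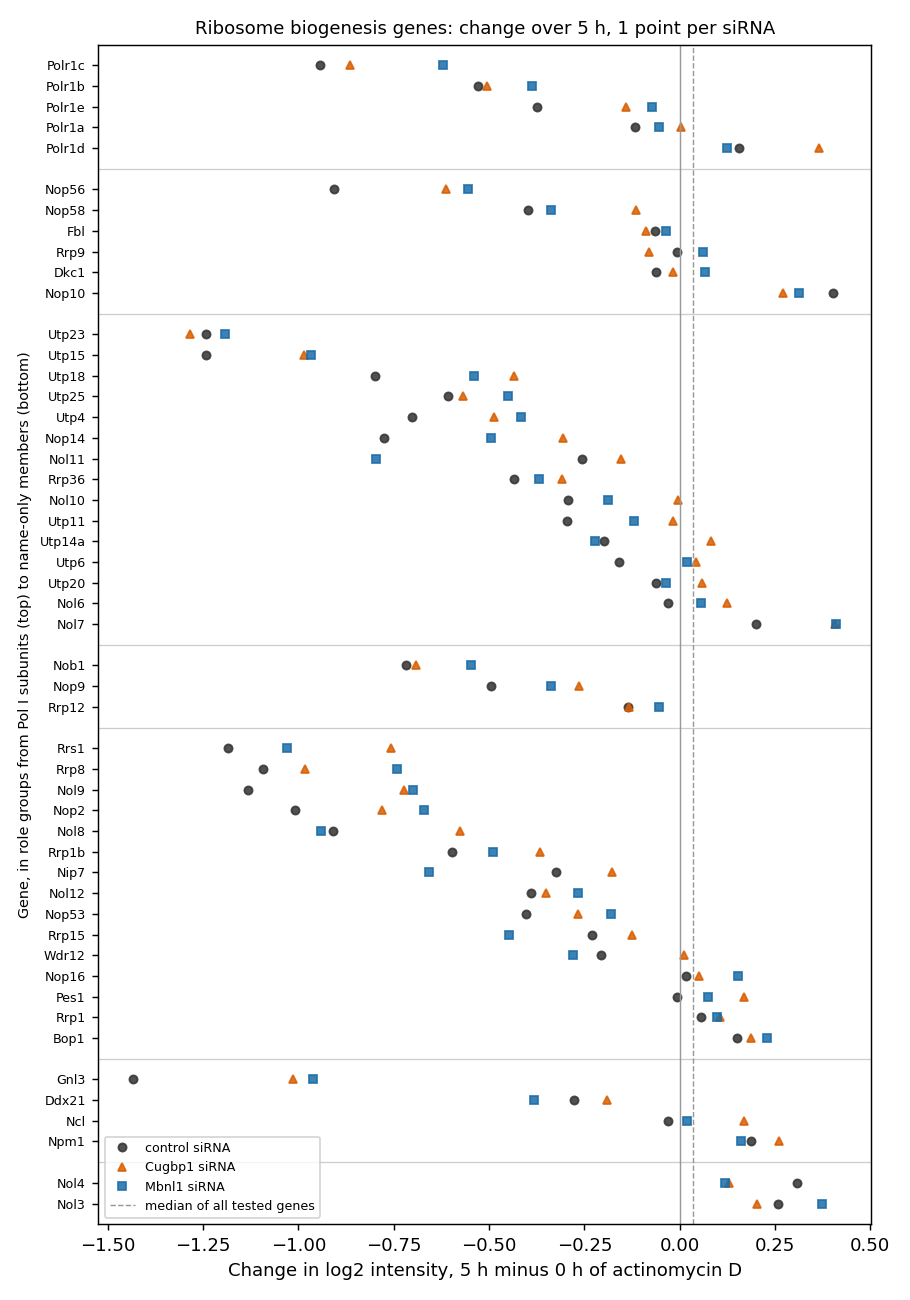
Change in log2 intensity from 0 to 5 h of actinomycin D (x axis) for each of the 50 tested members (y axis, in role groups), with 1 point per siRNA and the median of all tested genes as a dashed line. Utp23, Gnl3 and Utp15 lie furthest left, the control arm (circles) is often the leftmost point, and Nol11 stands out by its Mbnl1 arm; the rises of Polr1d, Npm1, Bop1 and Nol4 turn to small negative values with equal ribosomal protein medians, and the fall of Utp11 to a small positive one with equal medians of the tested genes.

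Of the 5 tested subunits of RNA polymerase I 3 fell, 1 rose and 1 did not pass the test, where 32.8% of all genes fell and 35.6% rose. Polr1c, which RNA polymerase III also uses, read 10.71, 10.24 and 9.76 on the control arrays at 0, 2.5 and 5 h, 10.83, 10.39 and 9.96 under Cugbp1 siRNA and 10.72, 10.37 and 10.10 under Mbnl1 siRNA. The 3 arrays at 5 h were all below the 3 at 0 h and the 3 at 2.5 h, and the fitted 5 h change was -0.81 ± 0.06 (adjusted p = 1.08e-05). Polr1b, the second largest subunit, fell by 0.47 ± 0.04, and Polr1e, one of the smaller, polymerase I-specific subunits, by 0.20 ± 0.06; without the control array at 5 h the Polr1e value was -0.11 and no longer called. Polr1a, the largest subunit, changed by -0.06 ± 0.04 and was not called. Polr1d, the usual partner of Polr1c, rose from 9.52, 9.49 and 9.65 at 0 h to 9.67, 9.85 and 9.78 at 5 h, a change of 0.22 ± 0.05 (adjusted p = 0.00764) that became -0.019 with equal ribosomal protein medians. As deposited, Polr1c and Polr1d thus went in opposite directions, a difference between genes that was not tested. The 3 subunits that the array annotation lists under older symbols, Twistnb (Polr1f), Cd3eap (Polr1g) and Znrd1 (Polr1h), were no members by the rule, and fell by 0.46, 0.31 and 0.34.

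Of 6 core snoRNP proteins 2 fell, 1 rose and 3 did not pass. The share of falls was thus near the 32.8% of all genes called lower (35.6% were called higher). Nop56 and Nop58 are the paired scaffold proteins of box C/D snoRNPs, which guide 2'-O-methylation, and fibrillarin (Fbl) is their methyltransferase. Nop56 read 12.54, 12.41 and 12.26 at 0 h under control, Cugbp1 and Mbnl1 siRNA and 11.63, 11.79 and 11.71 at 5 h, with no overlap and a fitted change of -0.69 ± 0.06 (adjusted p = 4.31e-05). Nop58 fell by 0.28 ± 0.06, with 75.8%, 92.4% and 79.1% of its 0 h signal left. Fbl read 11.53, 11.72 and 11.32 at 0 h and 11.46, 11.64 and 11.28 at 5 h. These 2 ranges overlapped, and the change of -0.06 ± 0.04 was not called; a dimmer probe set of Fbl gave 0.16. In the box H/ACA snoRNPs, which guide pseudouridylation, the enzyme Dkc1 changed by -0.01 ± 0.04 (not called) and its small partner Nop10 rose by 0.33 ± 0.04, to 132%, 121% and 124% of its 0 h signal. Rrp9, the U3 snoRNP protein, stayed within 9.81 to 9.96 on all arrays and was not called.

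Of 15 tested members of the small subunit processome 10 fell, 1 rose and 4 did not pass (32.8% of all genes fell and 35.6% rose). Utp23, a factor that helps release the snR30 (U17) snoRNA in yeast, read 8.27, 7.37 and 7.02 on the control arrays over time, 8.33, 7.25 and 7.04 under Cugbp1 siRNA and 7.84, 6.82 and 6.65 under Mbnl1 siRNA. It fell by 1.24 ± 0.05 (adjusted p = 4.22e-07), and 42.2%, 41.1% and 43.7% of its signal was left in the 3 arms. Its arrays at 2.5 and 5 h lay under the filter, where background compresses differences, so the fall may be larger than fitted. Because Utp23 passed the filter through its 0 h arrays alone, its selection favoured a fall. Its p-value is therefore no independent support for one. Utp15, a subunit of the t-UTP complex that also supports rDNA transcription, went from 9.84, 9.80 and 9.80 at 0 h to 9.25, 9.25 and 9.32 at 2.5 h and 8.60, 8.82 and 8.83 at 5 h. The 3 times did not overlap, and the fitted change was -1.07 ± 0.06 (adjusted p = 2.00e-06). Utp4, another t-UTP subunit, fell by 0.54 ± 0.05, as did Utp25 with 0.54 ± 0.04, and Utp18 by 0.59 ± 0.06. In the same assembly Utp20, Utp6, Utp14a and Nol6 were not called (changes of -0.01, -0.03, -0.11 and 0.05), and Nol7 rose by 0.34 ± 0.05. Utp3, under the filter and not tested, read 7.69, 7.40 and 7.56 at 0 h and 6.97, 7.02 and 6.88 at 5 h, lower in each arm.

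Late steps of 40S maturation were covered by 3 members. Nob1, the endonuclease that makes the mature end of 18S rRNA, read 11.15, 11.18 and 10.96 at 0 h, 10.79, 10.81 and 10.79 at 2.5 h and 10.43, 10.49 and 10.41 at 5 h. Its times did not overlap and its fall was 0.65 ± 0.05 (adjusted p = 1.07e-05). Nop9 fell by 0.37 ± 0.05, and Rrp12, an export factor, changed by -0.11 ± 0.05 without passing.

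Of 15 members in 60S maturation 11 fell, 1 rose and 3 did not pass (32.8% of all genes fell and 35.6% rose). Rrs1, which helps bring the 5S RNA particle into the pre-60S, read 8.32, 8.31 and 8.47 at 0 h and 7.13, 7.55 and 7.44 at 5 h, the 5 h arrays lying near or under the filter, and fell by 0.99 ± 0.11 (adjusted p = 0.000136). Rrp8, a methyltransferase that modifies 28S rRNA, fell by 0.94 ± 0.06, the polynucleotide kinase Nol9 by 0.85 ± 0.08, the methyltransferase Nop2 by 0.82 ± 0.06 and Nol8 by 0.81 ± 0.07. Nip7 fell by 0.39 ± 0.08. In the PeBoW complex, which the proteins Pes1, Bop1 and Wdr12 form, Pes1 changed by 0.08 ± 0.05 (not called), Bop1 rose by 0.19 ± 0.04 (-0.045 with equal ribosomal protein medians), and Wdr12 changed by -0.16 ± 0.06, a call lost with its other probe set (-0.02).

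The 4 abundant nucleolar proteins with several roles ran from the second largest fall to a rise. Nucleostemin (Gnl3), a GTPase of proliferating and stem cells, read 10.68, 10.15 and 9.25 on the control arrays, 10.65, 10.18 and 9.64 under Cugbp1 siRNA and 10.63, 10.19 and 9.67 under Mbnl1 siRNA. Its arms were nearly level at 0 and 2.5 h and parted at 5 h, when 37.0% was left under control siRNA and 49.5% and 51.4% under the knockdowns. The fitted fall was 1.14 ± 0.09 (adjusted p = 1.36e-05). Ddx21, an RNA helicase of rDNA transcription and processing, fell by 0.28 ± 0.04. Nucleolin (Ncl), which binds pre-rRNA, changed by 0.05 ± 0.04 and was not called, and nucleophosmin (Npm1), a chaperone of the granular component, rose by 0.20 ± 0.05 (-0.031 with equal ribosomal protein medians). Nol3 (an apoptosis repressor, ARC) and Nol4 share only the name prefix with the others, and rose by 0.28 ± 0.04 and 0.19 ± 0.05 (Nol4 -0.048 with equal ribosomal protein medians); without these and Nol4l the members called at 5 h were 35 of 48.

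**Figure D2:**
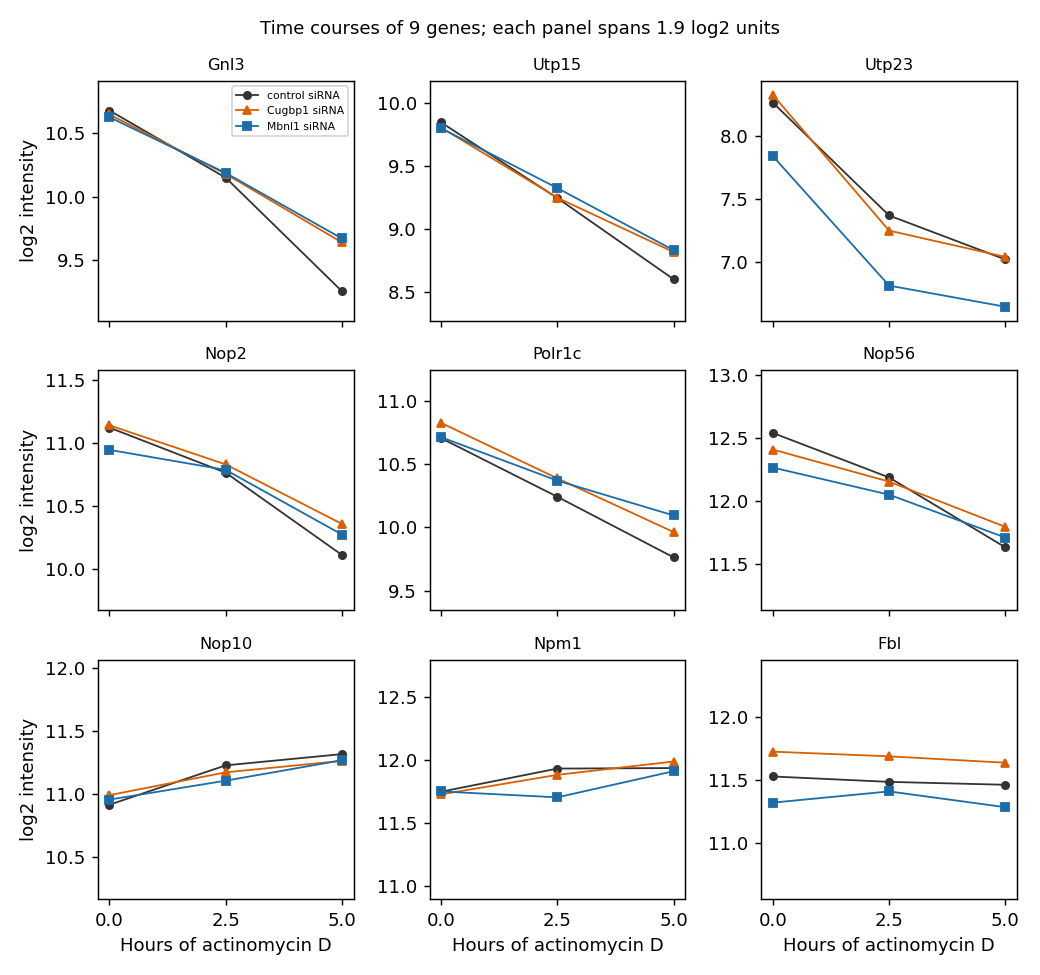
Log2 intensity (y axis) at 0, 2.5 and 5 h of actinomycin D (x axis) for 9 members, 1 line per siRNA and 1 array per point, with each panel spanning the same height. Gnl3, Utp15, Nop2, Polr1c and Nop56 fall through both intervals, Utp23 falls mostly by 2.5 h, Nop10 and Npm1 drift up (Npm1 not with equal ribosomal protein medians), and Fbl (-0.06, not called) has its arms apart at each time.

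The fall came in stages. At 2.5 h 18 members were lower than at 0 h and 6 higher (36% and 12%, where 24.2% and 23.1% of all genes were called), and each of the 18 was also lower at 5 h. From 2.5 to 5 h 21 were lower and 0 higher (42% against 17% lower and 4.47% higher among all genes). The members' median change was -0.07 in the first interval and -0.16 in the second, and that of all genes 0.03 and -0.0016. Of the 30 members lower at 5 h, 22 (73.3%) fell more in the second interval than in the first, against 36.1% of all genes lower at 5 h. The changes in the first and second interval were -0.48 and -0.65 for Gnl3, -0.28 and -0.55 for Nop2, -0.27 and -0.42 for Nop56, and -0.38 and -0.47 for Nol9. Utp23 and Rrs1 fell mostly in the first interval: their means over the arms were 8.15, 7.15 and 6.91 for Utp23 and 8.37, 7.63 and 7.38 for Rrs1, the later ones near the filter. With equal ribosomal protein medians 24 members were lower and 1 higher at 2.5 h (32.8% and 2.41% of all genes), and 38 were lower and 0 higher from 2.5 to 5 h (39.9% and 0.0912%); with equal medians of the tested genes these counts were 13 and 16 (18.5% and 52.4%), and 19 and 3 (13.5% and 18%).

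The promoters of the members, fallen or not, were read for the E-box CACGTG. It is the sequence bound by MYC and other factors of its class, and reads the same on both strands. RefSeq windows of 300 bases (250 before and 50 after the annotated start, mouse build GRCm38.p6) were found for 40 of the 52 members. CACGTG occurred in 7 of them (17.5%: Nol11, Nop2, Pes1, Utp18, Utp20, Utp25 and Utp4) and in 8.093% of 27025 genes. Those are all genes with a window, not only the tested ones. It was present in 5 of 26 tested members that fell and in 2 of 12 that did not. Windows of 66 bases around the motif (capitals) are shown for Nop2 and Utp18, among the larger falls, and for Nol11, the member with the largest knockdown effect. The motif begins 60 bases before the start in Nop2 (chr6:125131793-125131858, plus strand), 20 before in Utp18 (chr11:93885751-93885816, minus strand) and 43 before in Nol11 (chr11:107189389-107189454, minus strand).
Nop2: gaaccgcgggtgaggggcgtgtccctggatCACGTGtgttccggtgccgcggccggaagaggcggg
Utp18: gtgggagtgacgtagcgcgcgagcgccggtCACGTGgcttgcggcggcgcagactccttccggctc
Nol11: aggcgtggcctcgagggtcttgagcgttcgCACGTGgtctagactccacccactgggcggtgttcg
Myc itself read 11.02, 11.02 and 11.04 at 0 h under control, Cugbp1 and Mbnl1 siRNA and 8.37, 8.64 and 8.96 at 5 h, and fell by 2.37 ± 0.10 (adjusted p = 6.80e-07). A match of letters is a description of the sequence, and no binding was measured. Whether the motif or the fall of Myc has any part in the falls of the members was not tested.

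Other genes of the pathway, from lists drawn up by role, were set beside the 32.8% of all genes called lower at 5 h and the 35.6% called higher. Of 34 other small subunit processome and 40S factors 20 fell and 5 rose at 5 h, among them the falls of Mphosph10 (-1.39) and Wdr43 (-1.38). Of 36 other 60S factors 21 fell and 3 rose, with Nmd3, the 60S export adaptor, at -1.47 and Brix1 at -1.12. Of 10 polymerase I initiation, termination and regulatory factors 7 fell and 0 rose. These 7 include the selectivity factor subunit Taf1b (-1.25), Tbp (-1.01) and the regulators Myc and Baz2a (-0.24). They do not include Ubtf, the HMG-box factor of rDNA chromatin (-0.06, not called). The RNA exosome, which trims precursor ends, had 6 of 13 lower and 1 higher, Mphosph6 falling by 1.39. Other snoRNP proteins and their assembly factors were split, with 4 of 12 lower and 5 higher, and Nufip1, a box C/D assembly factor, at -2.02. Of 5 subunits that polymerase I shares with polymerases II and III 4 were higher and 0 lower (Polr2k 0.34), a list median of 0.18 that became -0.050, with 0 higher and 1 lower, with equal ribosomal protein medians. With equal medians of the tested genes 24.1% of all genes were lower and 59.2% higher. Of the 34 other small subunit factors 16 were then lower and 11 higher, and of the 36 other 60S factors 15 lower and 14 higher. The exosome had 4 lower and 6 higher, the polymerase I factors 4 lower and 1 higher, and the other snoRNP proteins 3 lower and 6 higher. Under control, Cugbp1 and Mbnl1 siRNA Taf1b read 7.19, 7.55 and 6.90 at 5 h, and Mphosph10 7.43, 7.44 and 7.09, near or under the filter.

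**Figure D3:**
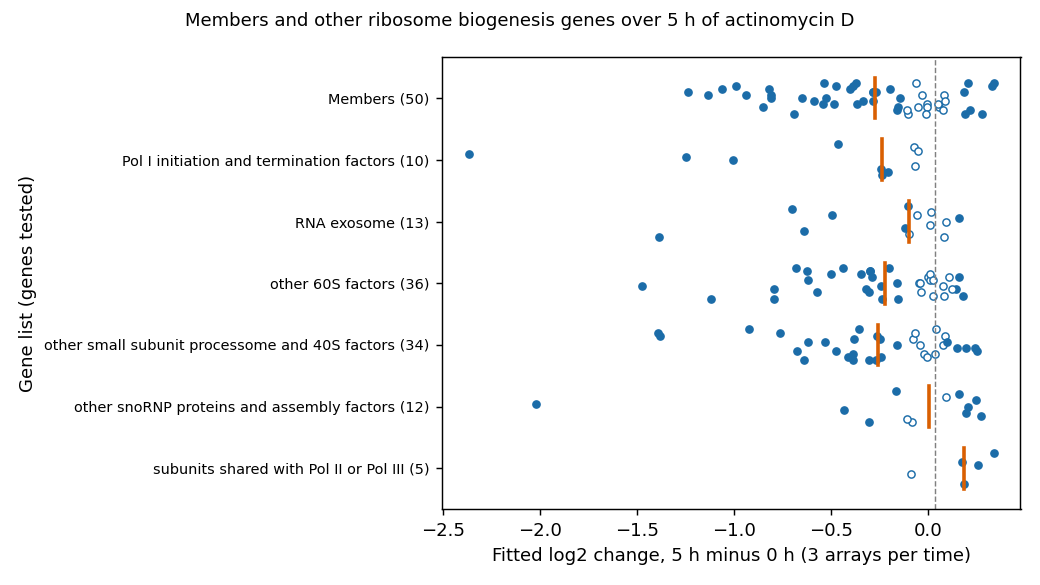
Fitted log2 change from 0 to 5 h (x axis) for the 50 tested members and the genes of the other pathway lists (y axis, number tested in brackets), filled where the adjusted p was under 0.05. Orange bars are list medians and the dashed line the median of all tested genes; the bars of members, 60S and small subunit lists lie left of it and that of the shared polymerase subunits right of it (this last median is -0.050 with equal ribosomal protein medians).

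Under Mbnl1 siRNA 15 of 50 members were lower than under control siRNA and 0 higher (30% and 0%, where 31% and 24% of all genes were called lower and higher), with a members' median of -0.06 against -0.02. The share of lower calls was thus near that of all genes. Each of the 15 was lower at all 3 times. A call itself favours the same sign at each time, so this is no separate support. With equal ribosomal protein medians 14 were lower and 1 higher (27.6% and 21.6% of all genes), and with equal medians of the tested genes 13 were lower and 6 higher (24.4% and 32.9%). Of 17 alternatives the call was kept in 4 for Rrp12, which lost it under both scalings, and in 12 for Nip7; Utp14a kept it in 13 of 16 and Fbl in 16 of 17. Nip7 went from -0.25 to -0.16 without the Mbnl1 siRNA array at 5 h.

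Nol11 had the largest difference. It belongs to the t-UTP group of the processome and is needed for rDNA transcription. It read 10.85, 10.80 and 10.60 on the control arrays over time, 10.80, 10.77 and 10.64 under Cugbp1 siRNA and 10.32, 10.08 and 9.52 under Mbnl1 siRNA. The 3 Mbnl1 siRNA arrays were below the other 6. The difference from control was -0.54 at 0 h, -0.72 at 2.5 h and -1.07 at 5 h, and the fitted difference -0.78 ± 0.11 (adjusted p = 0.000518). At 5 h 57.6% of its signal was left under Mbnl1 siRNA, 83.7% under control siRNA and 89.9% under Cugbp1 siRNA.

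Other members were lower at 0 h already and at each later time. Nip7 was hardly lower at 0 h (-0.041, then -0.34 at 2.5 h and -0.37 at 5 h). Nol7, a nucleolar factor, read 9.01, 9.25 and 9.21 on the control arrays and 8.49, 8.73 and 8.90 under Mbnl1 siRNA, a fitted difference of -0.45 ± 0.05 (adjusted p = 0.000178). Its Mbnl1 siRNA arrays were below the control array of the same time throughout. Utp23 was lower by 0.45 ± 0.05 (adjusted p = 0.000115), Nol3 by 0.40 ± 0.04 (adjusted p = 0.000113) and Ddx21 by 0.31 ± 0.04 (adjusted p = 0.000603). The Utp23 value is limited by low signal, since it passed the filter through its 0 h arrays alone. Its Mbnl1 siRNA arrays at 2.5 and 5 h read 6.82 and 6.65. By role, 6 of 15 small subunit processome members and 3 of 6 snoRNP proteins (Nop58 -0.27, Dkc1 -0.26 and Fbl -0.15) were lower. The count was 3 of 15 in 60S maturation (Wdr12 -0.29, Nip7 -0.25 and Rrp1b -0.22). It was 1 of 3 for late 40S factors (Rrp12, with the unstable call above) and 0 of 5 for polymerase I subunits. Of all genes 31% were called lower, and no role was tested against that share. Wdr12 was lower with its dimmer probe set too (-0.35). Of the 15, 7 (Nol11, Utp23, Ddx21, Wdr12, Nop58, Nip7 and Rrp1b) were also among the members that fell over 5 h. That share is below the 30 of 50 among all tested members.

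Among pathway genes outside the rule, Ubtf read 11.65, 11.64 and 11.60 on the control arrays and 11.19, 11.08 and 11.08 under Mbnl1 siRNA, a difference of -0.51 ± 0.04 (adjusted p = 2.38e-05) with no overlap. Tcof1 (treacle), which brings UBTF and snoRNPs to the rDNA, was lower by 0.53 ± 0.04, and the exosome core subunits Exosc5 and Exosc8 by 0.74 and 0.63. By list, where 31% of all genes were lower and 24% higher, 5 of 10 polymerase I factors were lower under Mbnl1 siRNA and 3 higher (Myc 0.36 among these), 7 of 12 other snoRNP proteins lower and 1 higher, 7 of 13 exosome genes lower and 0 higher, 10 of 34 other small subunit factors lower and 4 higher, 7 of 36 other 60S factors lower and 5 higher, and 0 of 5 shared subunits lower and 3 higher. The shares of lower calls in the small subunit and 60S lists were thus at or below that of all genes.

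**Figure D4:**
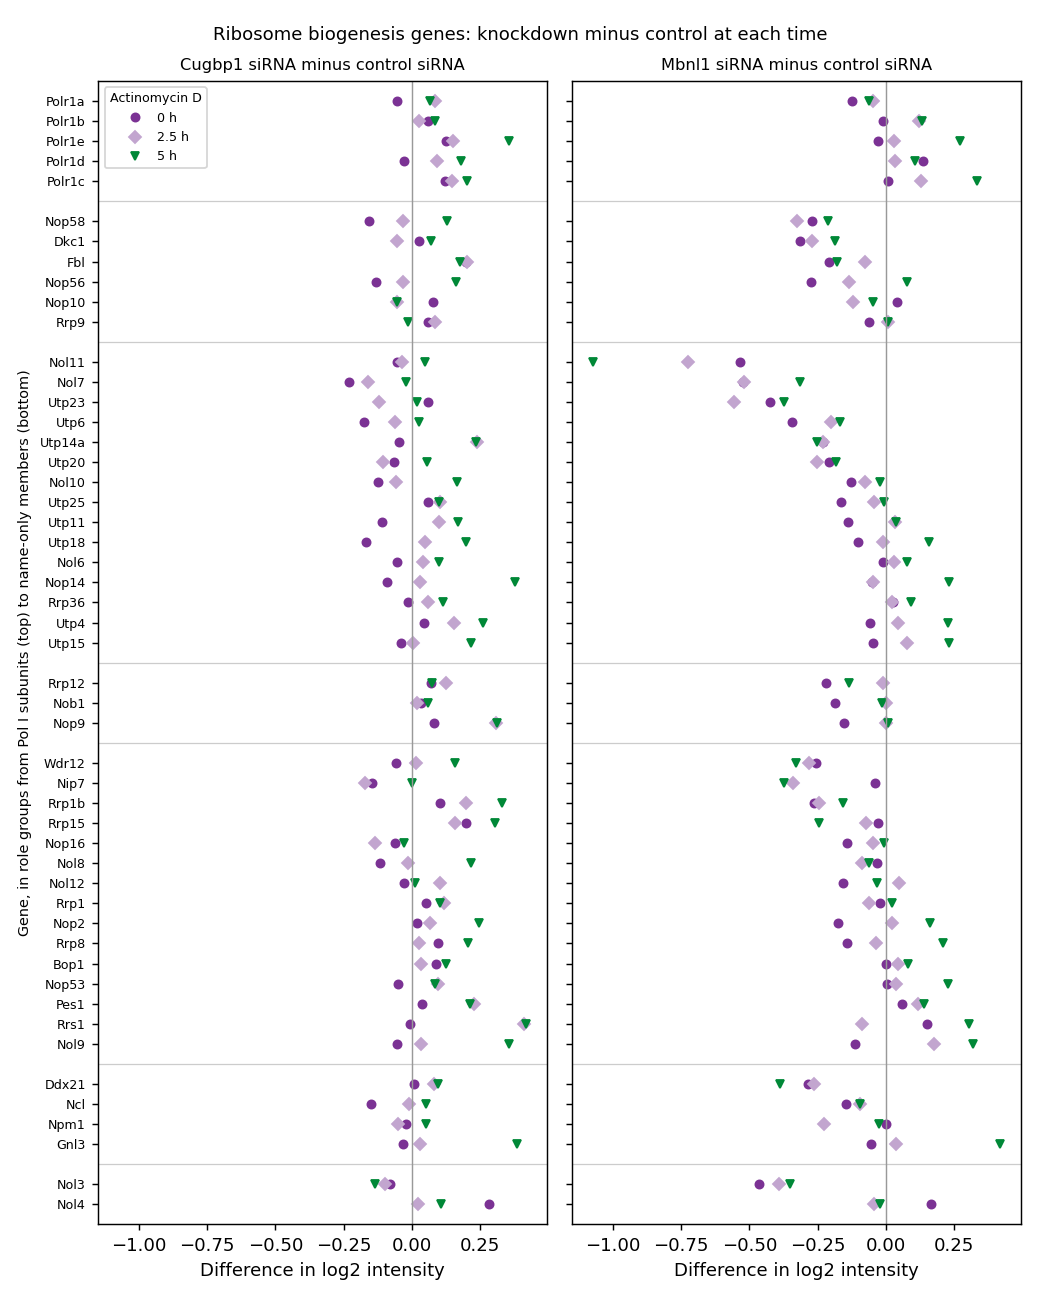
Difference in log2 intensity from the control siRNA array of the same time (x axis) under Cugbp1 siRNA (left) and Mbnl1 siRNA (right) for each tested member (y axis, in role groups), with 1 point per time of actinomycin D. Nol11 under Mbnl1 siRNA reaches -1.07 at 5 h; many of the other members lie further right at 5 h (triangles) than at 0 h (circles) in both panels.

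Few members passed the test under Cugbp1 siRNA. Under Cugbp1 siRNA 6 of 50 were higher than under control siRNA and 0 lower (12% and 0%, where 10.5% and 8.67% of all genes were called), with a median of 0.05 against 0.01. The 6 were Nop9 (0.23 ± 0.05, adjusted p = 0.0178), Rrp15 (0.22 ± 0.06, adjusted p = 0.0479), Rrp1b (0.21 ± 0.05, adjusted p = 0.0189), Polr1e (0.21 ± 0.06, adjusted p = 0.0424), Fbl (0.19 ± 0.04, adjusted p = 0.0142) and Pes1 (0.16 ± 0.05, adjusted p = 0.0449), and each was higher at all 3 times. The shared sign is favoured by the call itself and is no separate support. At 0, 2.5 and 5 h the difference was 0.036, 0.23 and 0.21 for Pes1 and 0.081, 0.31 and 0.31 for Nop9. It was 0.12, 0.15 and 0.36 for Polr1e and 0.10, 0.20 and 0.33 for Rrp1b. Rrp15 had 0.20, 0.16 and 0.30, and Fbl 0.20, 0.20 and 0.17. The fitted difference averages the 3 times, so for Pes1 and Nop9 it rests mostly on arrays after the drug. None of these 6 calls held under every alternative. The count was 0 without the control array at 2.5 h, the Cugbp1 siRNA array at 2.5 h or that at 5 h, 2 without the control array at 5 h, 3 without the Mbnl1 siRNA array at 2.5 h, 3 with equal ribosomal protein medians, and 0 with no filter on low values. Polr1e fell to 0.13 without the control array at 5 h and Rrp15 to 0.15 without the Cugbp1 siRNA array at 5 h.

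Fbl and Rrp1b were called under both knockdowns, in opposite directions; both differences use the same control arrays. Fbl read 11.53, 11.48 and 11.46 on the control arrays, 11.72, 11.69 and 11.64 under Cugbp1 siRNA and 11.32, 11.41 and 11.28 under Mbnl1 siRNA. The 3 arms did not overlap for Fbl. Rrp1b, a cofactor of 60S maturation, read 9.61, 9.37 and 9.02, then 9.72, 9.57 and 9.35, and 9.35, 9.13 and 8.86, with the order Cugbp1 siRNA, control, Mbnl1 siRNA kept at each time. Set directly against Cugbp1 siRNA, Mbnl1 siRNA had 19 members lower and 0 higher (38% and 0%, where 33.4% and 23% of all genes were called); the counts were 17 and 0 with equal ribosomal protein medians (26.5% and 22.8%) and 14 and 0 with equal medians of the tested genes (24.2% and 33.3%). Of the other pathway genes, the 60S GTPase Gnl3l (-0.62 ± 0.04, adjusted p = 0.00013) and the AAA ATPase Nvl (-0.47 ± 0.05, adjusted p = 0.000798) were the most lowered under Cugbp1 siRNA, where 3 of 36 other 60S factors were higher and 4 lower. In the remaining lists 1 of 10 polymerase I factors, 0 of 5 shared subunits, 5 of 34 small subunit factors, 2 of 12 snoRNP proteins and 4 of 13 exosome genes were higher, and 0, 0, 1, 0 and 0 lower.

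Loss of the members' mRNA was then compared between the arms. The members' median 5 h change was -0.29 under control siRNA, -0.14 under Cugbp1 siRNA and -0.27 under Mbnl1 siRNA, where all genes had 0.02, 0.05 and 0.01. A fall of at least 1.5-fold was seen for 16, 10 and 11 members (32%, 20% and 22%, against 14.0%, 11.7% and 14.6% of all genes). Of the 30 members lower at 5 h, 23 fell most in the control arm, 6 in the Mbnl1 arm and 1 in the Cugbp1 arm; among all genes lower at 5 h the control arm had the largest fall for 41.0%. Each arm's change rests on 1 array per time, and both knockdowns are set against the same control arrays.

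The difference in hourly slope from the control arm was above 0, a slower loss or faster gain, for 44 of 50 members under Cugbp1 siRNA (88%, against 65.2% of all genes) and for 39 under Mbnl1 siRNA (78%, against 51.5%). With equal ribosomal protein medians the members' median difference went from 0.028 to 0.015 per hour under Cugbp1 siRNA and from 0.021 to -0.0072 under Mbnl1 siRNA, where all genes had -0.0044 and -0.027. Single genes did not pass the test: limma called 0 members under Cugbp1 siRNA (0% of all genes called) and 0 under Mbnl1 siRNA (0.0203% of all genes called), with 19 and 13 members at an unadjusted p under 0.05, where 1129 and 1361 of all genes were. Of alternatives, a prior variance that follows intensity called 3 members under Mbnl1 siRNA, and leaving out the Mbnl1 siRNA array at 2.5 h called 1. Between the knockdowns 1 member was called (0.943% of all genes called): Nol11, whose slope under Mbnl1 siRNA was lower than that under Cugbp1 siRNA by 0.13 ± 0.02 log2 units per hour (adjusted p = 0.0454). Against control siRNA its slope differed by -0.11 ± 0.02 (adjusted p = 0.098). The call for Nol11 was lost without any single array other than the Mbnl1 siRNA array at 2.5 h, and without that array 2 members were called; it was lost too with no filter and with equal medians of the tested genes.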

How the data were processed

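Per the labels' protocols, biotinylated DNA was made from 100 ng of total RNA per sample for Affymetrix whole-transcript arrays. Per the submitters' processing notes the authors used RMA in Affymetrix Expression Console; for versions and genome build: not given in the sources used here. Values were deposited as linear intensity, judged from their range, and converted to log2 for the fits. Of 35556 probe sets 21789 had 1 symbol, 1621 several and 12146 none; 21698 of the named matched a RefSeq gene by ID. The 8 probe sets that pair a member with another symbol were not used. Each gene was represented by its brightest probe set, and genes with a mean log2 under 7.385 (intensity 167.1) were left out.

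Levels and times were fitted with limma 3.58.1 in R 4.3.3 (siRNA plus time, 4 residual degrees of freedom), and slopes with an added line in hours per siRNA (2 residual degrees of freedom). With 1 array per siRNA and time, the spread behind each p-value is what siRNA and time do not add up to, and the labels name no separate cultures, so that spread may be technical. Alternatives were no filter, a filter at the 65th percentile, 2 scalings, a prior variance that follows intensity, a robust prior, every probe set, leaving out each array and, chosen after seeing the data, leaving out Nol3, Nol4 and Nol4l. Members and lists were chosen with earlier results of these data known. Named genes are, per comparison, the 6 largest called rises and falls, the largest in each role group, polymerase I subunits and the well-known factors; others were named after their values were seen.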

Additional observations from a re-analysis of the deposited data

Results flagged for a closer look

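Nol11 differed between the knockdowns in its change over time: its slope under Mbnl1 siRNA was lower than under Cugbp1 siRNA, with a difference of -0.13 log2 units per hour (limma, adjusted p = 0.0454), by a test of the difference itself. The call was kept in 7 of 17 alternatives: it was lost without any single array other than the Mbnl1 siRNA array at 2.5 h, with no filter and with equal medians of the tested genes. Its signal fell in each of the 3 arms.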

How the results depend on the processing

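Counts of members called at 2.5 h (24), at 5 h (37), under Mbnl1 siRNA (15) and between the knockdowns (19) stayed within 1.5 times under the alternatives run, as did 0 for the slope under Cugbp1 siRNA; leaving out 1 array gave 17 to 26, 32 to 38, 12 to 16, 16 to 21 and 0. These totals join both directions, and the split moved more. With equal medians of the tested genes, 18 lower and 6 higher at 2.5 h became 13 and 16. At 5 h 30 lower and 7 higher became 24 and 17, and under Mbnl1 siRNA 15 and 0 became 13 and 6. For 5 h minus 2.5 h, 21 became 38 with equal ribosomal protein medians, and 15 to 25 without 1 array. The 6 calls under Cugbp1 siRNA became 0 with no filter, 3 with equal ribosomal protein medians, and 0 to 6 without 1 array. For the slope under Mbnl1 siRNA, 0 became 1 with a stricter filter, 1 with equal ribosomal protein medians, 3 with a prior variance that follows intensity, and 0 to 1 without 1 array. For the slope between knockdowns, 1 became 0 with no filter, 3 with a stricter filter, 2 with equal ribosomal protein medians, 0 with equal medians of the tested genes, and 0 to 2 without 1 array. Reversed values were Nol4 at 2.5 h (-0.0054 with its dimmest probe set) and, at 5 h with equal ribosomal protein medians, Polr1d (-0.019), Npm1 (-0.031), Bop1 (-0.045) and Nol4 (-0.048), and Utp11 at 5 h (0.011 with equal medians of the tested genes). No filter and a stricter filter change the number of genes tested; the cause of the other changes was not tested. The level fits block on time; a block by replicate number could not be fitted because each siRNA and time has 1 array. Signal near background limits Utp23, Rrs1 and Utp3, and also Taf1b and Mphosph10 among the other pathway genes.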
